A study of Homo sapiens with 10 samples.

Results

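NQO1, GCLC, GCLM, TXNRD1, SRXN1, SLC7A11, AKR1B10, AKR1C1 and AKR1C2 are 9 genes widely used to read the activity of the transcription factor NRF2, and their transcript abundance was followed here across human ovarian cancer cell lines. They were found by gene name in the deposited transcript annotation, as 9 of 57110 gene identifiers and 30 of 99493 transcripts. None of the 9 shares its identifier with an overlapping gene. RNA from 7 lines was read as 10 nanopore libraries. COV362, COV504, SK-OV-3, OVMANA, OVTOKO and OVKATE had 1 PromethION library each, and IGROV-1 had 2 PromethION libraries and 2 from the MinION, a smaller instrument. The labels name no treatment, allele or time point for any line, and all 10 libraries were made with the same extraction and ligation kits to benchmark a transcript quantification package.

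NRF2, encoded by NFE2L2, is held in the cytoplasm by KEAP1, which hands it to the CUL3 ubiquitin ligase for degradation. Oxidants and electrophiles modify KEAP1, and NRF2 then builds up, enters the nucleus, pairs with a small MAF protein and binds antioxidant response elements near its target genes. The targets make glutathione, keep thioredoxin and peroxiredoxin reduced, and detoxify quinones and carbonyls. Ovarian carcinomas of clear cell histology are known for frequent activation of this pathway.

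Levels are given in CPM, a gene's estimated counts per 1000000 counts of its library. CPM is not divided by transcript length, so a value is set only against the same gene in another library. In bulk RNA, fewer cells that express a gene and less of its RNA per cell cannot be told apart. The library totals lay between 1729782 and 3666224 counts, and 3 counts, the most that a count of 0 allows, were worth 0.818 to 1.73 CPM. Mitochondrial ribosomal RNA took 9.13% and 10.9% of the counts in the IGROV-1 PromethION libraries, 1.01% to 1.15% in the MinION libraries of the same line, and 1.58% to 3.31% in the other lines. The epithelial markers KRT7 and CDH1 had 0 counts in the 4 IGROV-1 libraries, and EPCAM was at most 1.55 CPM there and 8.67 CPM in OVTOKO, whereas PAX8, a Müllerian lineage factor, was at 84.1 CPM or more in all 10 libraries. In IGROV-1, 10 epithelial markers summed to 621 and 1358 CPM on the PromethION and to 569 and 1437 CPM on the MinION. Of these 10, 5 had at least 1 count in replicate 1 and 6 in replicate 2 on either instrument. Summed over the same 10 markers the level ranged from 569 to 9770 CPM over all 10 libraries. Over 3 leukocyte markers it ranged from 347 to 1065 CPM and was carried by CD68, a lysosomal protein, with CD3E at 0 counts in all 10 libraries. Over 3 endothelial markers it ranged from 0.534 to 25.8 CPM, and over 3 fibroblast markers from 14.4 to 87.6 CPM.

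The core of the antioxidant response element, TGACNNNGC, was searched on both strands in the RefSeq promoters (250 bases before to 50 after a start site, GRCh38.p14) because the 9 genes are taken as direct targets of NRF2. A promoter was given for 7 of the 9 genes, in 8 windows. The core lay in 3 of these 8 windows, and in 4687 of all 35116 promoters (13.3%). The windows with it belong to GCLM and to both start sites of TXNRD1. Each match is printed below on the strand of the gene with 10 bases on either side and the core in capitals.
GCLM, chr1:93909446-93909474, minus strand: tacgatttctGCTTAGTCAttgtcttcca
TXNRD1, upstream start site, chr12:104215670-104215698, plus strand: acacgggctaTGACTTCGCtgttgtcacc
TXNRD1, upstream start site, chr12:104215761-104215789, plus strand: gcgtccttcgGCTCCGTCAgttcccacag
TXNRD1, downstream start site, chr12:104286920-104286948, plus strand: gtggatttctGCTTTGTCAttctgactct
The matches begin 34 bases before the GCLM start site, 99 and 8 bases before the upstream TXNRD1 start site, and 102 bases before the downstream one. The letters were not found in the windows of NQO1, GCLC, SRXN1, AKR1C1 and AKR1C2, which says nothing about elements farther away.

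NQO1, which encodes the quinone reductase NAD(P)H dehydrogenase, lies on chromosome 16 from 69706996 to 69726951 on the minus strand (GRCh38). It was measured at 449.9 CPM in OVMANA, 706 in OVKATE, 1031 in OVTOKO, 880.2 in SK-OV-3, 413 in COV362 and 418 in COV504. IGROV-1 gave 182 and 158 CPM on the PromethION and 221 and 220.0 CPM on the MinION. All 6 other lines were above all 4 IGROV-1 libraries. OVTOKO was the highest line, 6.06 times the mean of 170.2 ± 16.6 CPM (SD, n = 2) in IGROV-1 on the PromethION.

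Each line was compared with the IGROV-1 PromethION libraries by edgeR's quasi-likelihood test over 13030 genes in a fit of all 10 libraries, two-sided, with Benjamini-Hochberg adjustment and a call at an adjusted p under 0.05. Lines other than IGROV-1 have no replicate, so the spread comes from the IGROV-1 pairs (residual degrees of freedom: 2), which stand in for the unreplicated libraries. The labels do not say that the IGROV-1 replicates are separate cultures, so the p-values measure the spread between these libraries, which may be technical. The 6 comparisons share the same IGROV-1 libraries. NQO1 was higher in all 6 of them. Its log2 change was 2.68 ± 0.15 (SE) in OVTOKO with an adjusted p of 8.6e-06, and 2.14 ± 0.15 in SK-OV-3 with an adjusted p of 2.8e-05. The others were 1.75 in OVKATE, 1.46 in OVMANA, 1.32 in COV362 and 1.22 in COV504, with adjusted p-values of at most 0.00049. These calls of NQO1 also held under DESeq2 and when any 1 of the IGROV-1 libraries was left out.

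**Figure D1:**
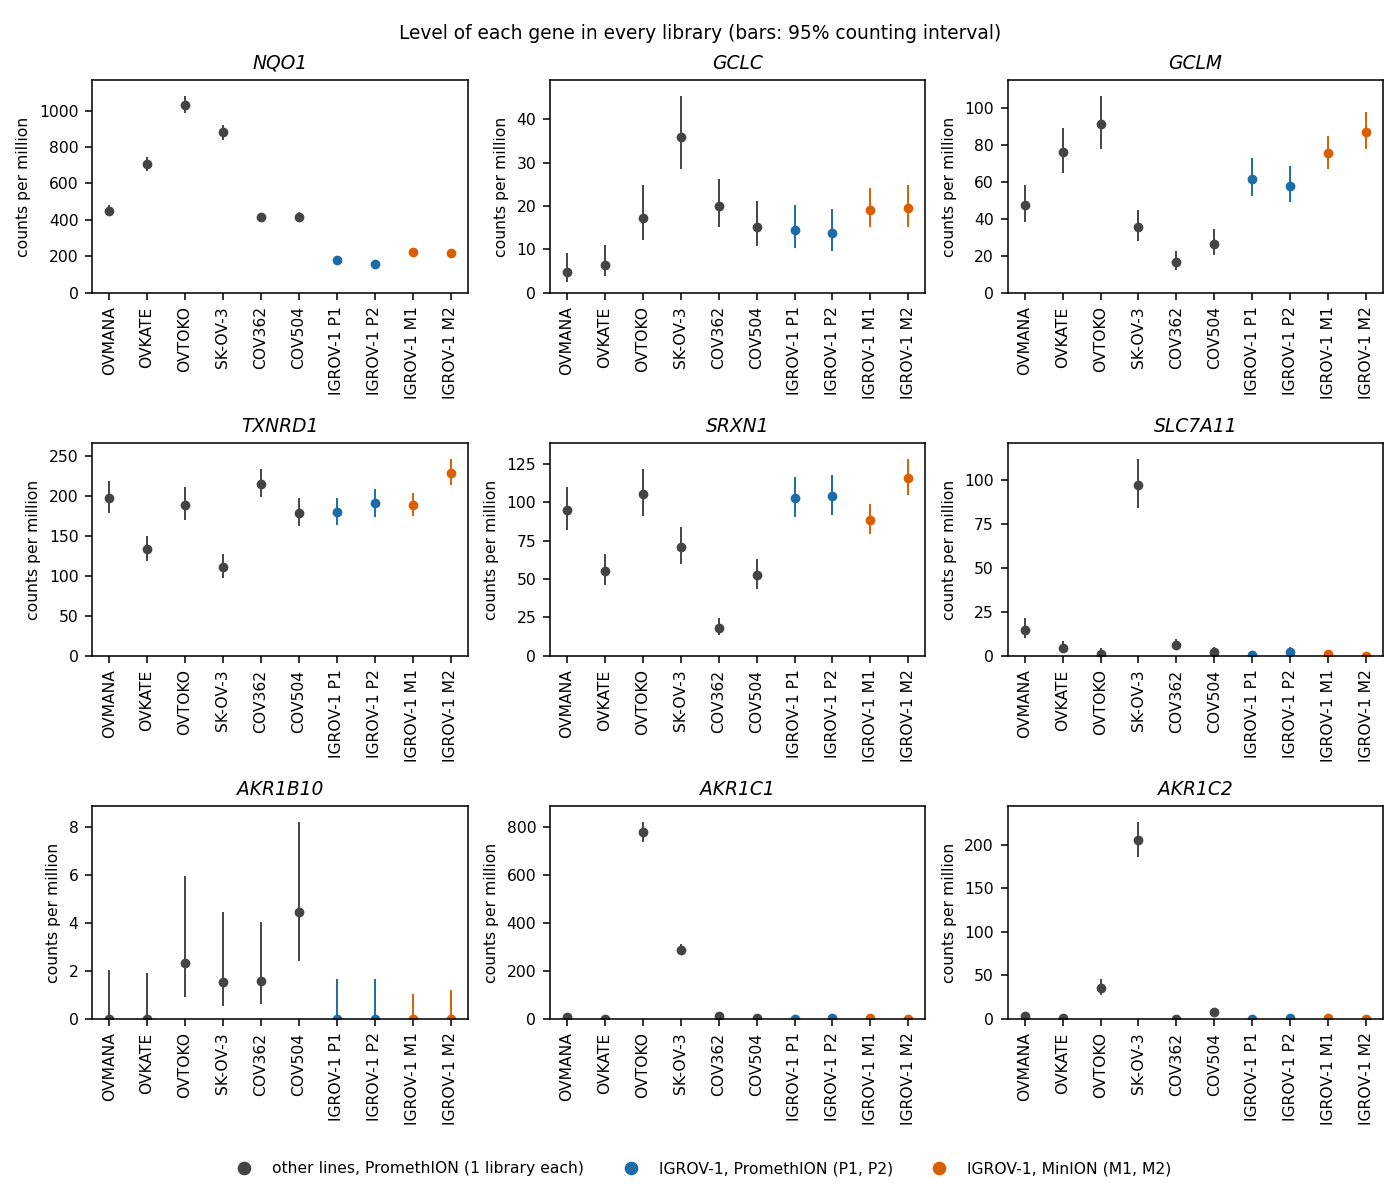
Level of each of the 9 genes in every library, with 1 panel per gene, CPM on the vertical axis from 0 and the 10 libraries on the horizontal axis; bars are 95% counting intervals, and P and M stand for the IGROV-1 replicates on the PromethION and MinION. NQO1 is above the IGROV-1 libraries in all 6 other lines, AKR1C1 stands at 779 CPM in OVTOKO, and SLC7A11 at 97.2 CPM in SK-OV-3.

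The subunits of glutamate-cysteine ligase, the first and rate-limiting enzyme of glutathione synthesis, did not follow each other across the lines. GCLC, the catalytic subunit (chromosome 6, 53497341 to 53545129, minus strand), was measured at 4.81 CPM in OVMANA, 6.43 in OVKATE, 17.3 in OVTOKO, 36.0 in SK-OV-3, 19.98 in COV362 and 15.1 in COV504. IGROV-1 gave 14.5 and 13.7 CPM on the PromethION and 19.1 and 19.5 CPM on the MinION. These are 9 to 71 counts per library. OVMANA and OVKATE lay below all IGROV-1 libraries and SK-OV-3 above them. GCLC was lower in OVMANA by edgeR's test (log2 change -1.48 ± 0.39 SE, adjusted p 0.019) and in OVKATE (-1.43 ± 0.35, adjusted p 0.0099), and higher in SK-OV-3 (1.12 ± 0.25, adjusted p 0.0074). None of these 3 calls was made by DESeq2, where the adjusted p-values were 0.49, 0.42 and 0.51. The OVMANA call was also lost without MinION replicate 1 (adjusted p 0.054) or without MinION replicate 2 (adjusted p 0.051).

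GCLM, the modifier subunit that raises the activity of the ligase (chromosome 1, 93885205 to 93909456, minus strand), was measured at 47.6 CPM in OVMANA, 76.2 in OVKATE, 91.3 in OVTOKO, 35.5 in SK-OV-3, 16.8 in COV362 and 26.7 in COV504. IGROV-1 gave 61.9 and 58.0 CPM on the PromethION and 75.6 and 87.4 CPM on the MinION. SK-OV-3, the line with the highest GCLC, was among the 3 lines lowest in GCLM. By edgeR's test GCLM was lower in COV362 (log2 change -1.79 ± 0.22 SE, adjusted p 0.00044), COV504 (-1.24 ± 0.21, adjusted p 0.0019) and SK-OV-3 (-0.99 ± 0.20, adjusted p 0.0052). It was higher in OVTOKO (0.68 ± 0.18, adjusted p 0.019). Under DESeq2 the COV362 call alone was made, with an adjusted p of 0.49 in OVTOKO, 0.31 in SK-OV-3 and 0.15 in COV504. The OVTOKO call was also lost without PromethION replicate 2 (adjusted p 0.057) or without MinION replicate 1 (adjusted p 0.054). Over the 7 lines, with IGROV-1 as its PromethION mean, log2(CPM + 1) of GCLC and GCLM gave a Pearson r of -0.38 (n = 7 lines, of which each but IGROV-1 is 1 library).

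SLC7A11 encodes xCT, the cystine carrier that supplies cysteine for glutathione (chromosome 4, 138164097 to 138242349, minus strand). It was measured at 14.96 CPM in OVMANA, 4.45 in OVKATE, 1.16 in OVTOKO, 97.2 in SK-OV-3, 5.88 in COV362 and 2.22 in COV504. The IGROV-1 libraries held 1 and 5 counts on the PromethION and 4 and 0 counts on the MinION, or at most 2.15 CPM. SK-OV-3 had 192 counts, and its ratio to both IGROV-1 PromethION libraries together was 75.7 (95% counting interval 34.1 to 209). OVMANA had 28 counts and a ratio of 11.6 (4.73 to 34.4). SLC7A11 passed the filter on low counts through the lines where it is high, so its calls are a description. By edgeR's test SLC7A11 was higher in SK-OV-3 (adjusted p 6.9e-05) and in OVMANA (adjusted p 0.0062), and DESeq2 did not call OVMANA (adjusted p 0.064). Without PromethION replicate 2, OVKATE (adjusted p 0.032) and COV362 (adjusted p 0.0024) were called higher as well. SLC3A2, the heavy chain that carries xCT to the membrane, was at 577 CPM in SK-OV-3 and at 110.3 to 247 CPM in the other libraries, and was higher in SK-OV-3 (log2 change 1.09 ± 0.19 SE, adjusted p 0.0021). The antisense gene SLC7A11-AS1 had 1 count in SK-OV-3 and 0 counts in the other 9 libraries, and the sources used here do not say if reads were counted by strand.

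Thioredoxin reductase and sulfiredoxin keep thioredoxin and overoxidised peroxiredoxins in their reduced state. TXNRD1, the cytosolic thioredoxin reductase (chromosome 12, 104215779 to 104350305, plus strand), varied least of the 9 across lines, by 1.93 times. It was measured at 198 CPM in OVMANA, 134 in OVKATE, 189.6 in OVTOKO, 112 in SK-OV-3, 216 in COV362 and 179 in COV504. IGROV-1 gave 180.3 and 191 CPM on the PromethION and 189 and 229.6 CPM on the MinION. OVKATE and SK-OV-3 lay below all other libraries. TXNRD1 was lower by edgeR's test in SK-OV-3 (log2 change -0.96 ± 0.17 SE, adjusted p 0.0027) and in OVKATE (-0.78 ± 0.17, adjusted p 0.0057). DESeq2 called neither (adjusted p 0.065 and 0.16), and the OVKATE call was lost with library totals in place of TMM scaling (-0.47, adjusted p 0.054). With library totals the median log2 change of all genes was 0.31 in OVKATE and 0.20 in SK-OV-3, against 0.013 and 0 with TMM, and the share of higher calls rose from 54.5% to 68.2% in OVKATE and from 52.7% to 64.5% in SK-OV-3.

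SRXN1, the sulfiredoxin (chromosome 20, 646615 to 653370, minus strand), was measured at 95.1 CPM in OVMANA, 55.4 in OVKATE, 105 in OVTOKO, 70.9 in SK-OV-3, 18.4 in COV362 and 52.5 in COV504. IGROV-1 gave 103 and 104 CPM on the PromethION and 88.6 and 116 CPM on the MinION. OVMANA and OVTOKO lay within the range of the IGROV-1 libraries and the other lines below it. By edgeR's test SRXN1 was lower in COV362 (log2 change -2.44 ± 0.23 SE, adjusted p 0.00012), OVKATE (-1.20 ± 0.20, adjusted p 0.0016), COV504 (-1.05 ± 0.20, adjusted p 0.0035) and SK-OV-3 (-0.77 ± 0.20, adjusted p 0.014). DESeq2 made the COV362 call alone (adjusted p 0.085 in OVKATE, 0.17 in COV504 and 0.40 in SK-OV-3), and library totals removed the SK-OV-3 call (adjusted p 0.072).

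**Figure D2:**
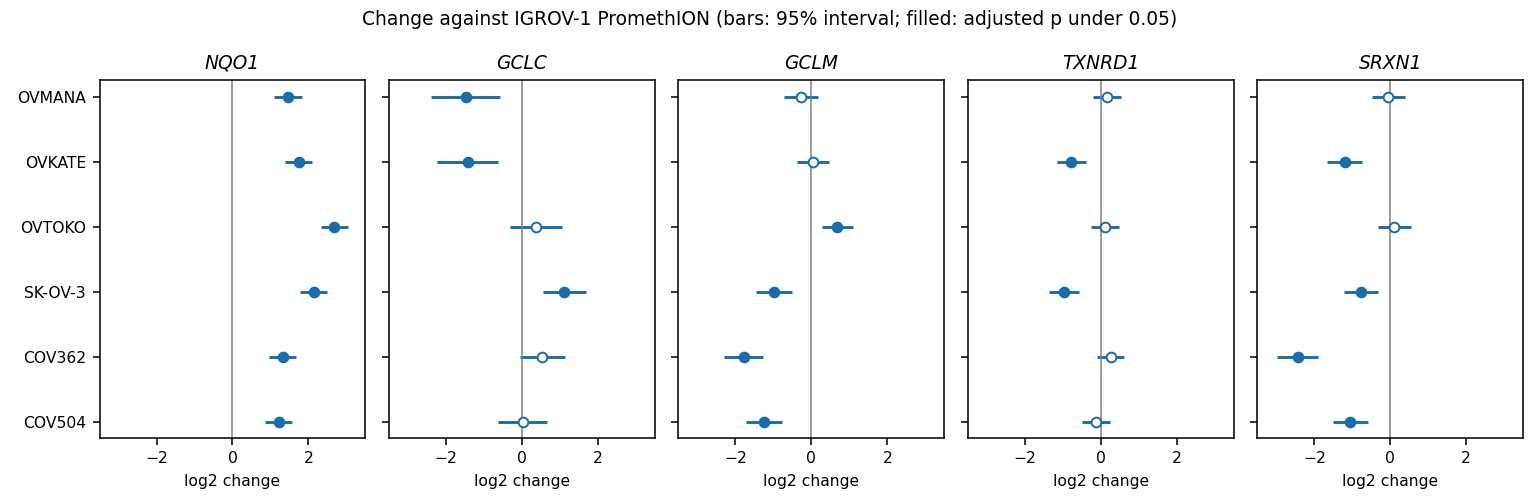
Log2 change of NQO1, GCLC, GCLM, TXNRD1 and SRXN1 in each line against the IGROV-1 PromethION libraries, with 1 panel per gene and 1 row per line; bars are 95% intervals of the edgeR fit and filled points have an adjusted p under 0.05. NQO1 lies to the right of 0 in all 6 lines, while SRXN1 reaches -2.44 and GCLM -1.79 in COV362.

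AKR1C1 and AKR1C2 are aldo-keto reductases that reduce steroids and reactive carbonyls, and they are near copies of each other on chromosome 10. AKR1C1 spans 4963253 to 4983283 on the plus strand and AKR1C2 4987400 to 5004023 on the minus strand. Their coding sequences, 969 bases each in GENCODE 29, differ at 19 positions (98.0% identity), and the 250 bases before their RefSeq start sites are 96.5% identical. The coding window with the most differences, bases 103 to 162 from the start codon, holds 10 of the 19, in capitals below. It is shown because reads are told apart between these genes by such positions and by the longer ends of the transcripts.
AKR1C1: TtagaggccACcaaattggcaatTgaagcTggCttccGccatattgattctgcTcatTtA
AKR1C2: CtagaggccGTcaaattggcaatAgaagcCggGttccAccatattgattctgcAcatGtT

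AKR1C1 was measured at 7.48 CPM in OVMANA, 0.989 in OVKATE, 779 in OVTOKO, 289.7 in SK-OV-3, 10.97 in COV362 and 5.34 in COV504. IGROV-1 gave 1.28 and 1.72 CPM on the PromethION and 2.73 and 1.54 CPM on the MinION, from 3 to 10 counts. OVTOKO and SK-OV-3 stood far above the other libraries. The ratio to both IGROV-1 PromethION libraries together was 520 in OVTOKO (95% counting interval 252 to 1295) and 193 in SK-OV-3 (93.2 to 483). AKR1C1 was called higher by edgeR in OVTOKO (adjusted p 1.2e-06), SK-OV-3 (1.8e-06), COV362 (0.0015), OVMANA (0.0099) and COV504 (0.035). These calls are a description, since AKR1C1 passed the filter on low counts through the lines where it is high. The ratio was 7.32 in COV362 (3.12 to 19.8), 4.99 in OVMANA (1.88 to 14.6) and 3.56 in COV504 (1.29 to 10.7). The COV504 call was lost under DESeq2 (adjusted p 0.12), with no filter on low counts (0.064), without PromethION replicate 1 (0.095) and without MinION replicate 1 (0.056).

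AKR1C2 was measured at 3.74 CPM in OVMANA, 1.48 in OVKATE, 35.3 in OVTOKO, 205 in SK-OV-3, 0.392 in COV362 and 8.01 in COV504. The IGROV-1 libraries held 0 and 2 counts on the PromethION and 2 and 1 counts on the MinION. The order of the leading lines was the reverse of that of AKR1C1. SK-OV-3 was the highest, at 479 times IGROV-1 (95% counting interval 132 to 3968), and OVTOKO followed at 82.3 times (21.8 to 695). AKR1C2 was called higher by edgeR in SK-OV-3 (adjusted p 4.2e-06), OVTOKO (9.9e-05), COV504 (0.0036) and OVMANA (0.039). These calls too are a description, since AKR1C2 passed the filter on low counts through the lines where it is high. COV504 had 18 counts and a ratio of 18.7 (4.48 to 166), and OVMANA 7 counts and a ratio of 8.73 (1.66 to 86.2). The OVMANA call was lost under DESeq2 (adjusted p 0.14), with no filter (0.071), with the PromethION libraries alone in the fit (0.097) and without PromethION replicate 1 (0.097), MinION replicate 1 (0.13) or MinION replicate 2 (0.11).

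Of the counts given to AKR1C1 or AKR1C2, AKR1C1 took 95.7% in OVTOKO (1348 of 1409 counts, 95% Wilson interval 94.5% to 96.6%) and 58.5% in SK-OV-3 (572 of 977 counts, 55.4% to 61.6%). AKR1C3, the next gene of the cluster, stood at 166 CPM in OVTOKO and 437 CPM in SK-OV-3, or 16.9% and 46.9% of the counts of the 3 genes together. The 3 genes summed to 980.5 CPM in OVTOKO and 932 CPM in SK-OV-3, and to 2.99 to 79.1 CPM in the other libraries. TMM scaling uses a total of 1580794 in OVTOKO (library total 1729782) and of 2231797 in SK-OV-3 (library total 1974467), which widens the gap between their sums. On library totals OVTOKO and SK-OV-3 thus had close sums with different shares of the genes, as assigned by the authors' counting. Reads moved between near copies would change these shares, and this was not tested. AKR1C4 and the pseudogene AKR1C8P had 0 counts in all 10 libraries.

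**Figure D3:**
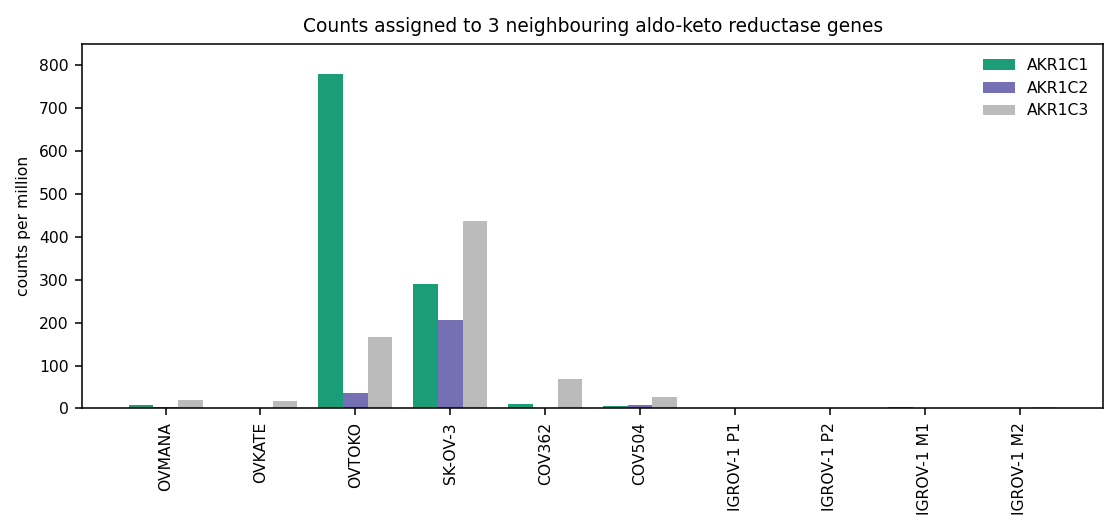
CPM assigned to AKR1C1, AKR1C2 and AKR1C3 in each of the 10 libraries, as bars from 0. AKR1C1 leads in OVTOKO at 779 CPM, AKR1C3 leads in SK-OV-3 at 437 CPM, and the IGROV-1 bars are close to 0.

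AKR1B10, an aldo-keto reductase that reduces retinal and other aldehydes (chromosome 7, 134527592 to 134541408, plus strand), was near the limit of these libraries. It had 10 counts in COV504, 4 in OVTOKO, 4 in COV362, 3 in SK-OV-3 and 0 in OVMANA, OVKATE and all 4 IGROV-1 libraries. The level in COV504 was 4.45 CPM. This observed level was 6.92 times the floor of 3 counts over both IGROV-1 PromethION libraries. The lower 95% limit that counting error allows for the ratio of COV504 to IGROV-1 was 4.66. That limit was 1.78 for OVTOKO and 1.21 for COV362, neither of which was called by edgeR (adjusted p 0.063 and 0.077), although OVTOKO passed without PromethION replicate 1 (adjusted p 0.037) or replicate 2 (adjusted p 0.036). The edgeR call in COV504 (adjusted p 0.017, and 0.0023 to 0.044 over its edgeR alternatives) sets 10 counts against 0, in a gene that passed the low-count filter through the lines where it has counts. DESeq2 gave an unadjusted p of 0.23 there and no adjusted p.

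Counted over all 9 genes, SK-OV-3 had the most calls against IGROV-1, with 5 higher and 3 lower where 41.8% of all tested genes were called. OVTOKO had 4 higher and 0 lower (34.1% of all tested genes), OVMANA 4 higher and 1 lower (35.4%), COV504 4 higher and 2 lower (43.5%), COV362 2 higher and 2 lower (42.5%), and OVKATE 1 higher and 3 lower (49.2%). In OVTOKO 0 of the 9 were lower at an unadjusted p under 0.05 in edgeR either. DESeq2 made lower calls in COV362 alone (GCLM and SRXN1), so its 0 lower calls in OVTOKO are shared by the remaining lines. SLC7A11, AKR1B10, AKR1C1 and AKR1C2 had too few counts in IGROV-1 to enter the test between instruments and passed the low-count filter here through the lines where they are high, so these counts are a description. The COV504 count includes AKR1B10, which rests on 10 counts.

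Ordered by level, neighbouring lines could often not be told apart. Of 54 neighbouring pairs over the 9 genes, 14 had an unadjusted 95% interval of the log2 difference that left out 0, 35 had one that covered it, and in 5 both lines were at or under the floor. The order came from the same levels and no share over all genes was counted, so these intervals are a description. SLC7A11, AKR1B10, AKR1C1 and AKR1C2 also passed the filter on low counts through the lines where they are high. For NQO1 the interval left out 0 between OVTOKO and SK-OV-3 (0.53, 0.12 to 0.95) and between COV362 and IGROV-1 (1.32, 0.96 to 1.68), and the steps between SK-OV-3, OVKATE, OVMANA, COV504 and COV362 covered 0. For GCLC the step from IGROV-1 down to OVKATE left out 0 (1.43, 0.62 to 2.23), as did the step from COV504 down to OVKATE for TXNRD1 (0.65, 0.21 to 1.09). GCLM had such steps between OVTOKO and OVKATE (0.64, 0.17 to 1.11) and between OVMANA and SK-OV-3 (0.71, 0.17 to 1.26). For SRXN1 they lay between OVMANA and SK-OV-3 (0.71, 0.20 to 1.23) and between COV504 and COV362 (1.39, 0.78 to 2.00). SLC7A11 had a single such step, between SK-OV-3 and OVMANA (2.41, 1.37 to 3.44). For AKR1C1 the interval left out 0 between OVTOKO and SK-OV-3 (1.73, 1.28 to 2.19), between SK-OV-3 and COV362 (4.45, 3.83 to 5.06) and between COV504 and IGROV-1 (1.72, 0.46 to 2.98). AKR1C2 had such steps between SK-OV-3 and OVTOKO (2.23, 1.57 to 2.89) and between OVTOKO and COV504 (2.29, 1.35 to 3.22), and AKR1B10 had no such step.

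Across the 7 lines the 9 genes gave 36 pairs, of which 22 had a positive and 14 a negative Pearson r of log2(CPM + 1), with a median of 0.17. The highest were 0.84 for AKR1C1 with AKR1C2, which share sequence, 0.78 for GCLM with SRXN1, and 0.71 for NQO1 with both AKR1C1 and AKR1C2. The lowest was -0.62 for TXNRD1 with SLC7A11. Over the same 7 lines, among 10663 genes whose mean reached 5 CPM, the genes most like each member were ELFN2 and NPTXR for NQO1 (r of 0.99 for both), SNUPN and SPATS2 for GCLC (0.98 and 0.97), TMX1 and FOXRED2 for GCLM (0.97 and 0.96) and GMPPB and NPM3 for TXNRD1 (0.99 and 0.97). They were PHLDA3 and SLC25A30 for SRXN1 (0.98 for both), FDX1 and PAPLN for SLC7A11 (0.97 for both), RAP2C and MTCH2 for AKR1B10 (0.98 for both), CARD10 and CDH16 for AKR1C1 (0.97 for both), and the joined TMEFF1 identifier and TNIP1 for AKR1C2 (0.99 for both). With 7 points and this many genes, an r of this size describes the libraries and no more. NPTXR went from 0 CPM in IGROV-1 to 239.9 CPM in OVTOKO and 131 CPM in SK-OV-3, and CDH16 from 0 in IGROV-1 to 141 CPM in OVTOKO.

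Between the instruments, IGROV-1 was tested over its 4 libraries and 10041 genes, of which 0.817% were called. NQO1, GCLC, GCLM, TXNRD1 and SRXN1 entered this test, which had no block for the replicate number, and 0 of the 5 were called by edgeR. Such a block changed the calls of NQO1 and GCLM, as given below under the dependence on the processing. Without that block, NQO1 (log2 change MinION minus PromethION 0.33 ± 0.13 SE, adjusted p 0.25) and GCLM (0.40 ± 0.14, adjusted p 0.22) had an unadjusted p under 0.05. So did 1659 of all 10041 genes. NQO1 averaged 170.2 ± 16.6 CPM on the PromethION and 221 ± 0.864 CPM on the MinION (SD, n = 2 each). GCLC averaged 14.1 ± 0.550 and 19.3 ± 0.263 CPM, and GCLM 59.96 ± 2.79 and 81.5 ± 8.40 CPM. For these 3 genes the pairs did not overlap, with the MinION libraries above. How many of all tested genes separate in this way was not counted, so this only describes the 4 libraries. TXNRD1 (186 ± 7.70 and 209 ± 28.5 CPM) and SRXN1 (103 ± 1.01 and 102 ± 19.2 CPM) overlapped. With mitochondrial ribosomal RNA left out of the library total, NQO1 averaged 189 CPM on the PromethION and 223 CPM on the MinION, which is a smaller gap. Of 14023 transcripts tested in the same libraries 2.29% were called, and 0 of the 14 tested transcripts of the 5 genes were among them. ENST00000370238 of GCLM (adjusted p 0.22) and ENST00000320623 of NQO1 (adjusted p 0.28) had an unadjusted p under 0.05, as did 2462 of all 14023 transcripts. DESeq2 called 0 of the 5 genes and 0 of the 14 transcripts.

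The transcripts of NQO1 differed in their inclusion of exons 4 and 5. The full transcript of 6 exons, ENST00000320623, took 81.7% to 88.7% of the NQO1 counts in 9 libraries and 69.0% in COV504 (95% Wilson interval 66.0% to 71.9%). ENST00000379046, which lacks exon 4, took 26.1% in COV504 (245 of 939 counts, 23.4% to 28.99%). In the other libraries it took 7.9% in OVMANA, 7.6% in OVKATE, 10.1% in OVTOKO, 12.03% in SK-OV-3, 12.8% in COV362, 11.4% and 10.8% in IGROV-1 on the PromethION, and 10.1% and 13.0% on the MinION. COV504 lay above all other libraries, whose intervals did not reach it, and the IGROV-1 PromethION pair had a mean of 11.1% ± 0.443 (SD, n = 2). These shares were not tested between lines, and the intervals cover counting error only. Exon 4 lies on chromosome 16 from 69714964 to 69715077, is coding throughout and has 114 bases, a whole number of codons (38). It is printed in capitals from GENCODE 29, between the last 10 bases of exon 3 and the first 10 of exon 5, since it is an exon that ENST00000379046 lacks.
NQO1 exon 4: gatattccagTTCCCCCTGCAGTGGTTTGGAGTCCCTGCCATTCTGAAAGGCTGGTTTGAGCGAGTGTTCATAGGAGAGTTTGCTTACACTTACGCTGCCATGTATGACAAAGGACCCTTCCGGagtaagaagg
ENST00000379046 also has other outer ends than the full transcript, and the files do not show on which feature its reads were assigned.

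A transcript that lacks exon 5 of NQO1 (102 bases), ENST00000379047, stayed under the 10% used here for naming transcripts and was picked after its values were seen. It took 6.4% in OVMANA, 5.3% in OVKATE, 0.85% in OVTOKO, 5.9% in SK-OV-3, 3.3% in COV362 and 3.4% in COV504. IGROV-1 gave 2.1% and 2.0% on the PromethION and 1.0% and 1.7% on the MinION. OVTOKO was the lowest, with a 95% Wilson interval of 0.51% to 1.4%. The intervals of the IGROV-1 libraries overlapped it, such as 0.50% to 1.9% in MinION replicate 1.

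**Figure D4:**
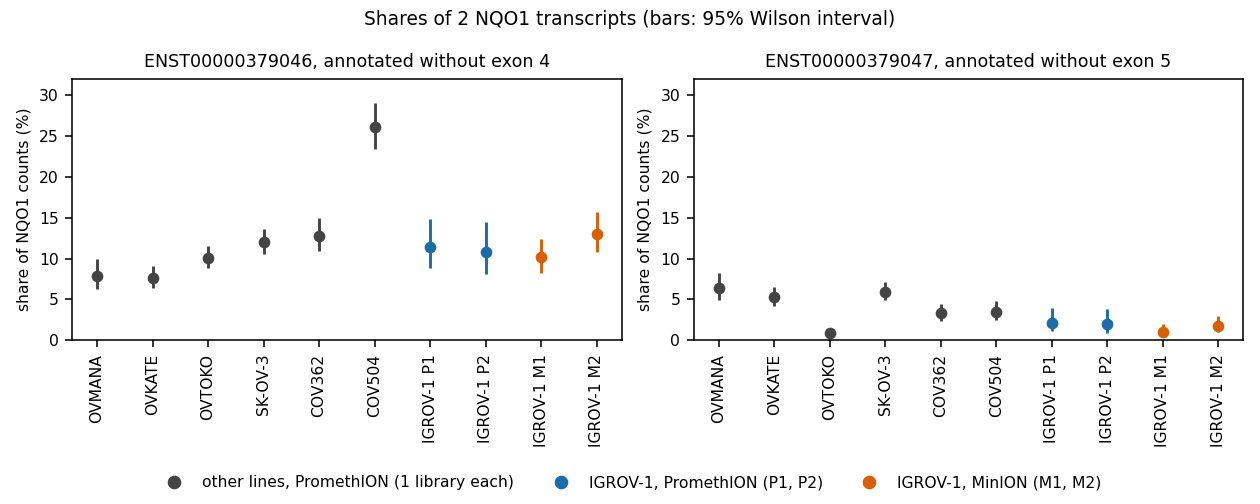
Share of NQO1 counts in ENST00000379046, which lacks exon 4 (left), and ENST00000379047, which lacks exon 5 (right), in percent, for each of the 10 libraries; bars are 95% Wilson intervals. COV504 stands at 26.1% for ENST00000379046, and no other library is above 13.0%.

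TXNRD1 counts were spread over many transcripts in every library. Of its 11 transcripts, 6 took at least 10% of the counts in some library. ENST00000503506 took 14.4% (COV362) to 26.5% (IGROV-1 PromethION replicate 2), and ENST00000526691 took 6.1% in COV362 and 19.3% in COV504. ENST00000526691 also took 18.9% and 8.6% in the IGROV-1 PromethION replicates, a gap between replicates nearly as wide as that between lines. ENST00000397736 and ENST00000429002 took 14.9% and 14.7% in COV504 and 23.5% each in COV362. The ratio of their counts stayed between 0.998 and 1.07 in all 10 libraries, although ENST00000429002 starts at the upstream site at 104215779 and ENST00000397736 at the downstream first exon from 104286682 to 104287109. How reads that fit both were divided is not given in the files, so these values do not give the use of the start sites whose promoter matches are printed above. ENST00000354940 took 11.9% to 17.1% and ENST00000388854 10.03% to 14.01%.

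**Figure D5:**
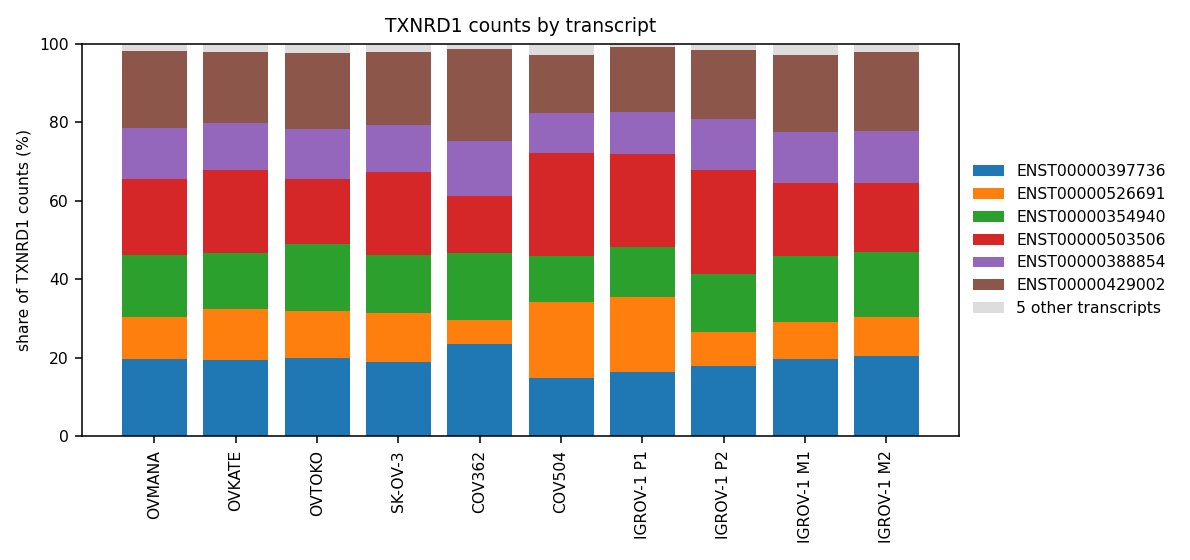
Share of TXNRD1 counts by transcript, in percent, stacked to 100% for each of the 10 libraries, with 6 named transcripts and the 5 others in grey. No transcript passes 26.5%, and the shares of ENST00000503506 (red) and ENST00000526691 (orange) differ between libraries, IGROV-1 replicates included.

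The other members had a leading transcript in every library with enough counts to tell. ENST00000370238 of GCLM took 82.7% (COV362, 43 counts of the gene) to 98.2% (OVMANA), and ENST00000615724 the rest, with its highest shares at 17.3% in COV362 and 14.8% in COV504. ENST00000229416 of GCLC took at least 94.95% in each library. SRXN1 and SLC7A11 had all counts in 1 transcript, and AKR1C1 nearly all in ENST00000380872 in each library. ENST00000421196 of AKR1C2 took 17.5% of 61 counts in OVTOKO (95% Wilson interval 10.4% to 29.5%) and 7.6% of 405 counts in SK-OV-3 (5.4% to 10.7%), and ENST00000380753 the remainder there.

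The counts of 4 further lists are given beside the share of all tested genes called in the same line. A count near that share is not a result about the list. Some list genes were too low in IGROV-1 for the test between instruments. Such genes could enter here through lines where they are high, so the counts are a description. Of 10 regulators of the pathway, 5 were higher and 1 lower in OVKATE (49.2% of all genes), 5 higher in COV504 (43.5%), 4 higher and 1 lower in COV362 (42.5%), 3 higher in SK-OV-3 (41.8%), 2 higher in OVMANA (35.4%) and 1 higher in OVTOKO (34.1%). NFE2L2 itself shares its identifier with the overlapping AC019080.1, although 99.2% to 100% of the counts were in NFE2L2 transcripts. It ranged from 64.1 to 167 CPM and was called in 0 of the 6 lines, with the largest log2 change at 0.63 ± 0.26 SE in OVMANA (adjusted p 0.088). KEAP1, the repressor of NRF2, was at 142 CPM in COV504 and 46.2 to 103 CPM elsewhere, and was higher in COV504 (log2 change 1.18 ± 0.17 SE, adjusted p 0.00089) and in OVKATE (0.50 ± 0.18, adjusted p 0.047). MAFF, a small MAF partner of NRF2, was higher in all 6 lines, from 5.88 CPM in COV362 to 27.9 CPM in SK-OV-3. IGROV-1 on the PromethION had 0.854 and 2.58 CPM, where the floor of 3 counts is 1.28 and 1.29 CPM. MAFF thus had few counts in the reference of all 6 comparisons, and its calls are a description. It was the 1 regulator called in OVTOKO. BACH1, a repressor that competes at the same elements, was lower in OVKATE (-1.37 ± 0.39, adjusted p 0.019), and MAFG in COV362 (-1.01 ± 0.24, adjusted p 0.010). SQSTM1, which sequesters KEAP1, was at 1536 CPM in COV362 and 1169.9 CPM in SK-OV-3 against 383 to 808 CPM in the other libraries.

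Among 12 genes of glutathione synthesis and use, of which 11 were tested, COV504 had 3 higher and 3 lower (43.5% of all genes), COV362 3 higher and 4 lower (42.5%), OVKATE 3 higher and 5 lower (49.2%), OVTOKO 4 higher and 3 lower (34.1%), SK-OV-3 5 higher and 3 lower (41.8%), and OVMANA 5 higher and 1 lower (35.4%). The highest in OVMANA was GPX2, an epithelial glutathione peroxidase, at 1511 CPM there and at most 0.859 CPM in any other library. ABCC3, a conjugate export pump, stood at 165 CPM in OVTOKO and 91.2 CPM in SK-OV-3, against 11.4 to 37.2 CPM in the 4 other lines and at most 0.854 CPM in IGROV-1. GSTM3, a glutathione transferase, was the lowest in COV504 (log2 change -7.32 ± 0.51 SE, adjusted p 1.9e-05). Of 6 genes of the thioredoxin system, 3 were lower in COV504 (43.5% of all genes), where 0 were higher even at an unadjusted p under 0.05. COV362 had 1 higher and 2 lower (42.5%), SK-OV-3 1 of each (41.8%), OVMANA 2 higher and 1 lower (35.4%), and OVKATE 3 of each (49.2%). OVTOKO had 2 higher (34.1%), and 2 others were lower there at an unadjusted p under 0.05 without passing the adjustment. TXNIP, which binds thioredoxin, was at 841 CPM in SK-OV-3 (log2 change 3.06 ± 0.16 SE, adjusted p 5.9e-06), while SESN2, a stress-induced sestrin, was at 6.23 CPM in COV504 (-2.42 ± 0.30, adjusted p 0.00039).

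Enzymes that supply NADPH, the cofactor of NQO1, thioredoxin reductase and the aldo-keto reductases, also differed between lines. ME1, the cytosolic malic enzyme, had 0 counts in all 4 IGROV-1 libraries and 11.2 to 75.2 CPM in the others, highest in OVTOKO and SK-OV-3. TKT, the transketolase, was at 88.0 CPM in OVKATE (log2 change -3.67 ± 0.19 SE, adjusted p 4.4e-06).

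Of 14 genes for detoxification and for heme or iron, 9 were higher in OVTOKO (34.1% of all genes were called), with 0 lower even at an unadjusted p under 0.05, and SK-OV-3 had 9 higher and 1 lower (41.8%). OVMANA had 7 higher and 2 lower (35.4%), COV362 5 higher and 3 lower (42.5%), OVKATE 5 of each (49.2%), and COV504 3 higher and 4 lower (43.5%). The list median of the log2 change was 1.69 in OVTOKO and 1.54 in SK-OV-3, where that of all genes was 0, and -0.15 in COV504. Of the 14 genes, 10 had enough counts in IGROV-1 to enter the test between instruments. The rest could pass the low-count filter here through lines where they are high, and could then hardly be called lower. These counts and medians are therefore a description. CES1, a carboxylesterase, had 22.8 CPM in SK-OV-3 and 0 counts elsewhere. HMOX1, the inducible heme oxygenase, was at 103 CPM in OVTOKO (log2 change 1.70 ± 0.19 SE, adjusted p 0.00031) and at 1.96 CPM in COV362 (-4.03 ± 0.37, adjusted p 9.4e-05), against 33.3 and 33.9 CPM in IGROV-1 on the PromethION. Between the instruments 38 genes of the 5 lists, NADPH supply among them, were tested and 0 were called by edgeR, with 6 at an unadjusted p under 0.05. Over all genes tested, 0.817% were called and 1659 of 10041 had such an unadjusted p. Among near copies of the members, NQO2 was higher in SK-OV-3 at 91.2 CPM against 11.6 and 15.4 CPM in IGROV-1 on the PromethION, and AKR1B1 reached 1026 CPM in OVTOKO, whereas AKR1B15 had counts in SK-OV-3 alone (1.01 CPM).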

How the data were processed

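Nanopore libraries of 7 ovarian cancer cell lines were analysed from the authors' processed tables. Reads were aligned with minimap2 2.24-r1122 on GRCh38, per the submitters' processing notes; for the quantification tool, the annotation release and the use of strand, nothing is given in the sources used here. The deposited tables give an estimated count per transcript, and the deposited TPM equals the estimated count per 1000000 counts of the library to within 5.64e-11, so it is not scaled by length. The members and gene lists were chosen with earlier results of these data known.

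Counts were summed per gene identifier (712 of 57110 join several genes) and rounded to whole numbers for tests. Tests used edgeR 4.0.16 in R 4.3.3 (TMM, default filter by group, quasi-likelihood, two-sided, Benjamini-Hochberg over all genes tested), with DESeq2 1.42.0 as an alternative, and were tested on simulated data. The coefficient of variation among replicates was 11.7% for genes and 14.4% for transcripts. Replicate pairs differed by more than counting noise (chi-square per degree of freedom 4.36 over 9673 genes on the PromethION and 6.73 over 10200 on the MinION). Intervals are 95% and, like the floor of 3 counts, cover counting error only where they are of levels, ratios or shares. All 9 members were named. Transcripts were named at 10% or more of a member's counts in a library with at least 20, list genes where at most 2 were called in a direction or where they were the highest or lowest, and the 2 genes most alike per member on log2(CPM + 1). The values of NFE2L2, KEAP1 and CES1, of SLC3A2, ABCC3 and NQO2 in SK-OV-3 and of HMOX1 in OVTOKO fall outside this rule and were chosen after they were seen. The counts of the NADPH supply list and 1 of its genes are not reported here. Sequences come from RefSeq (GRCh38.p14) and GENCODE 29. Alternatives were other normalizations, filters, tools and fits, and leaving out libraries, mitochondrial ribosomal RNA, noncoding transcripts or the split between near copies.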

Additional observations from a re-analysis of the deposited data

How the results depend on the processing

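Over all alternatives, 717 values of a member's change kept their direction and their side of the threshold, 28 lost a call, 8 gained one and 11 changed sign. The cause of these changes was not tested. DESeq2 called 1442 genes in OVMANA, 2116 in OVKATE, 1314 in OVTOKO, 1672 in SK-OV-3, 1587 in COV362 and 1771 in COV504, against 4613, 6405, 4443, 5446, 5544 and 5672 by edgeR. Leaving out 1 IGROV-1 library gave 2890 (without MinION replicate 1) to 4398 genes in OVTOKO. Between the instruments edgeR called 82 genes, 15 with no filter, 49 with all 10 libraries in the fit, and 4 (without MinION replicate 2) to 209 (without PromethION replicate 1) with 1 library left out; 35 were called without PromethION replicate 2 and 8 without MinION replicate 1. For transcripts the number was 321, 17 with no filter, 138 with all 10 libraries, and 0 (without MinION replicate 1, 1511 at an unadjusted p under 0.05) to 675 (without PromethION replicate 1), with 5 without MinION replicate 2. With the replicate number as a block the counts were 1979 genes and 2291 transcripts, NQO1 (log2 change 0.33, adjusted p 0.00059) and GCLM (0.40, adjusted p 0.0047) were called, as were their transcripts ENST00000320623 and ENST00000370238; the labels do not say that the numbers pair the libraries, and replicate differences on the instruments correlated at r = 0.37 over 10041 genes. SRXN1 in OVMANA was 0.0068 with DESeq2 size factors and by DESeq2, and AKR1C1 in OVKATE was 0.056 when summed with AKR1C2. Without 1 IGROV-1 library, uncalled log2 changes that turned sign ran from -0.21 to 0.086 for SRXN1 between instruments, -0.0017 to 0.087 for GCLM in OVKATE, -0.80 to 1.41 for SLC7A11 in OVTOKO, -1.01 to 3.18 for AKR1C2 in COV362, -0.017 to 0.062 for GCLC in COV504, -0.031 to 2.18 for SLC7A11 in COV504, -0.81 to 0.26 for ENST00000526691 of TXNRD1 and -0.23 to 0.070 for ENST00000381962 of SRXN1. Depth limits SLC7A11, AKR1B10, AKR1C1 and AKR1C2 in IGROV-1, where each library held at most 10 counts.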

Other observations

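Other NRF2-linked genes of the lists had line patterns that the comparisons above do not describe. MGST1, a membrane-bound glutathione transferase, had 0 counts in COV504 and all 4 IGROV-1 libraries, and stood at 360.1 CPM in OVKATE, 213 in COV362, 99.8 in SK-OV-3, 38.5 in OVMANA and 15.6 in OVTOKO. UGT1A6, a glucuronosyltransferase whose identifier is joined with others of its locus, was at 73.4 CPM in SK-OV-3 and 37.9 CPM in OVMANA and at most 0.445 CPM in the other libraries. UGDH, which makes the UDP-glucuronate that such enzymes use, was at 399 CPM in OVMANA and 295 CPM in OVTOKO, against 48.3 and 38.2 CPM in IGROV-1 on the PromethION. TRIM16L had 0 counts in OVMANA and 54.9 CPM in OVTOKO. FTH1, the ferritin heavy chain, was at 22239 CPM in COV504, where FTL, the light chain, was at 801 CPM, the lowest of the 10 libraries.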
